A study of Mus musculus with 9 samples.

Results

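The division kinases described here are 10 genes, Plk1, Plk4, Plk5, Aurka, Aurkb, Aurkc, Bub1, Bub1b, Nek2 and Ttk. Apart from Plk5, their products start, order and check the segregation of chromosomes in mitosis and meiosis. The genes were chosen by name, with every probe set taken whose single symbol in the platform annotation is 1 of them. A probe set is a group of short probes to 1 transcript. Of 18194 genes with a probe set of 1 symbol these are 10, read by 21 of the 45037 probe sets on the array other than controls. Nek2 had 4 probe sets, Plk4 and Bub1b had 3 each, Aurka, Aurkb, Bub1 and Ttk had 2 each, and Plk1, Plk5 and Aurkc had 1 each.

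The measurements were 9 Affymetrix arrays of spermatogonia, the proliferating germ cells at the base of the testis tubule, from adult Balb/C mice. Mice were on a vitamin A-deficient (VAD) diet for 18 weeks (3 arrays), on the same diet for 25 weeks (3 arrays), or on a normal diet as controls (3 arrays). For the control mice the labels give neither age nor time on the diet. Each cell preparation came from the testes of 2 mice and was enriched by overnight plating and sedimentation through albumin, with a purity stated as above 90%, and 100 ng of total RNA went through 2 rounds of amplification. Whether the 3 arrays of a group are separate preparations is not stated, so the p-values measure the spread between arrays, which may be technical. In a cell population of this kind, fewer cells of a type and less RNA per cell cannot be told apart.

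Retinoic acid, made from vitamin A, is the signal that moves spermatogonia from the undifferentiated pool into differentiation and then into meiosis, and a testis without vitamin A keeps Sertoli cells and undifferentiated spermatogonia while later germ cells are lost. A dividing cell relies on a sequence of kinases: Polo-like and Aurora kinases prepare the centrosomes and the spindle, Aurora B or Aurora C corrects faulty attachments of chromosomes, and Ttk, Bub1 and Bub1b hold back anaphase until every chromosome is attached. Germ cells use these kinases both in the mitotic divisions of spermatogonia and in the meiotic divisions of spermatocytes.

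The values are MAS5 signals, a probe set intensity on a linear scale, and were taken as log2(signal + 3.259) and quantile normalized, so that fold changes are on that scale and understate the change of dim probe sets. Of the 9 arrays, 2 stood apart before any test. VAD 25-week array 3 and control array 3 had trimmed mean signals of 23.3 (VAD) and 23.0 (control), against 55.6 to 186 on the other 7, and are called the dim arrays. They correlated at 0.889 with each other but at 0.776 to 0.809 with the rest, whereas the other 7 correlated among themselves at 0.935 to 0.981. The other VAD 25-week arrays, 1 and 2, carried the brightest signals of the series (186 and 144), and their poly-A spike controls averaged 270 and 338 against 4.97 to 10.6 on all other arrays. How far that moves with the differences at 25 weeks was not tested. Differences were tested with limma over all 9 arrays, with group and a block for the dim arrays as terms, and a probe set was called at a Benjamini-Hochberg adjusted p under 0.05 over the 27022 probe sets at or above the 40th percentile of mean signal.

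All 21 division kinase probe sets passed that limit, but Plk5 did so narrowly, at a mean log2 signal of 3.59 against a limit of 3.39, and it fails it without the dim arrays. At 25 weeks of deficiency the limma fit called 4 of the 21, with Plk1, Aurka and Plk5 lower and 1 Plk4 probe set higher than in controls. Of all probe sets, 6.29% were called lower and 8.51% higher in that comparison, so 3 of 21 lower and 1 of 21 higher stand beside a broad background. The 3 lower include Plk5, which passed the limit on signal through the control arrays, where it is high, so that count is partly built in. With no limit the limma adjusted p of Plk5 at 25 weeks was 0.00401. At 18 weeks 1 of the 21 was called, Plk5, which was lower, against a background of 0.133% lower and 1.32% higher. Nothing is read from that single count, since Plk5 passed the limit on signal through the control arrays and its adjusted p at 18 weeks was 0.0772 with no limit. Between 25 and 18 weeks 0 of 21 were called, as were 0 of 27022 probe sets (0%), although 3124 of these and 6 of the 21 had an unadjusted p under 0.05. With group as the sole term limma called 0 probe sets in each of the 3 comparisons (1955 at 18 weeks, 3211 at 25 weeks and 1031 between the times had an unadjusted p under 0.05), and the smallest adjusted p of a division kinase was 0.569, 0.217 and 0.917. The calls given below come from fits that either have a term for the dim arrays or leave those arrays out. With the replicate number added as a block beside that term, calls over all probe sets at 25 weeks were 2591 against 3999, and the 4 division kinase calls stayed.

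**Figure D1:**
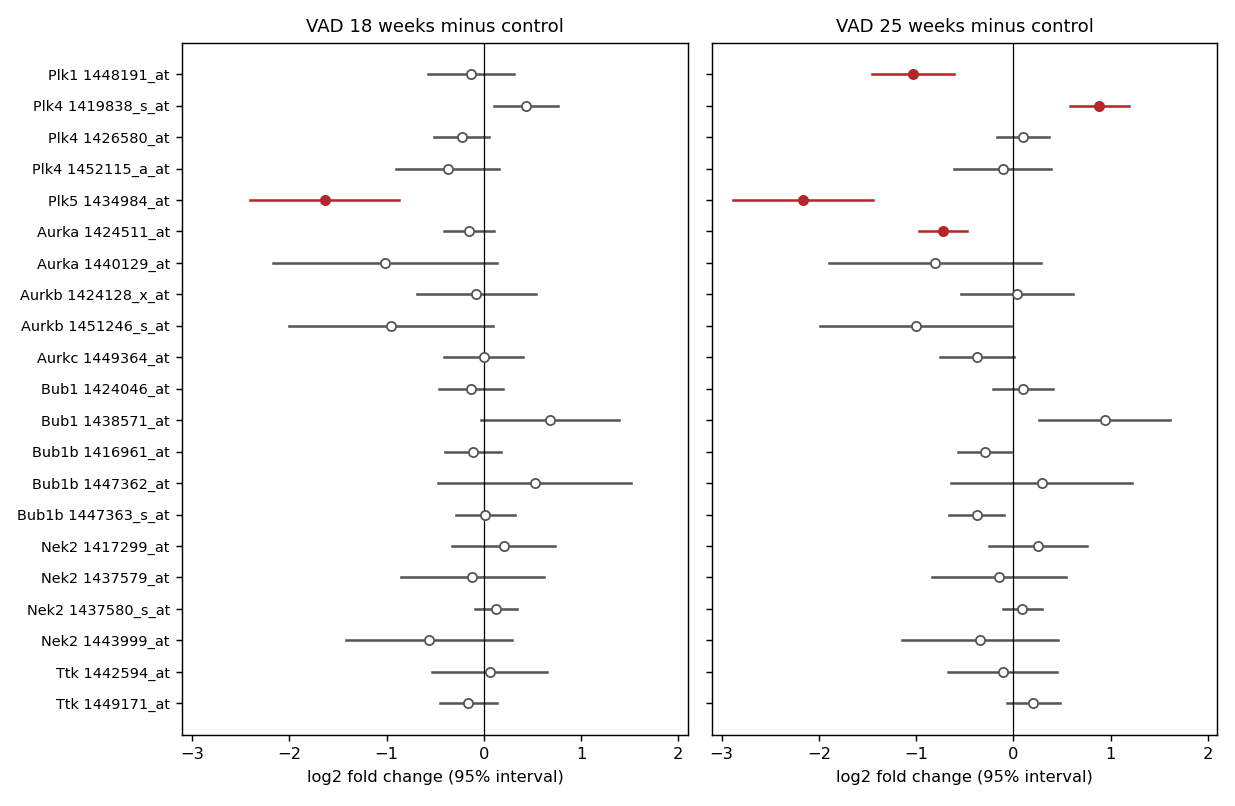
Log2 fold change (horizontal axis) with its 95% interval for each of the 21 division kinase probe sets (vertical axis), at 18 weeks (left) and 25 weeks (right) of vitamin A deficiency, each minus control, from the limma fit with a block for the dim arrays. Filled red points passed an adjusted p of 0.05, namely Plk5 at 18 weeks and Plk1, Plk4 1419838_s_at, Plk5 and Aurka 1424511_at at 25 weeks. The widest intervals are those of the dim Aurka 1440129_at, followed by those of the brighter Aurkb 1451246_s_at.

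Plk1 (1448191_at), which drives entry into mitosis, matures the centrosomes and releases cohesin from chromosome arms, was 2.05-fold lower at 25 weeks. Its deposited signals were 469, 192 and 429.8 at 18 weeks, 496, 355 and 107 at 25 weeks, and 347, 262 and 261 in controls. After normalization its log2 levels were 8.42, 7.79 and 8.46 at 18 weeks, 7.41, 7.33 and 8.43 at 25 weeks, and 8.51, 8.11 and 9.66 in controls. Both dim arrays were the highest of their group, so that the 25-week and control ranges overlapped over all arrays but did not on the others. The log2 change at 25 weeks was -1.04 ± 0.19 (SE, n = 3 each, limma adjusted p = 0.00594), with a 95% interval of -1.46 to -0.61. It was -1.23 within the dim pair and -0.94 between the other arrays, and -0.97 (adjusted p = 0.0186) in a fit without the dim arrays. At 18 weeks the Plk1 log2 difference was -0.13 ± 0.20 (adjusted p = 0.794).

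Aurka (1424511_at), the kinase that Tpx2 activates on the spindle and that matures the centrosomes at the start of division, was 1.65-fold lower at 25 weeks. Its deposited signals were 2189, 1443 and 2079.7 at 18 weeks, 3088, 2550.0 and 272 at 25 weeks, and 2021, 2041 and 386 in controls. The 2 bright 25-week arrays thus read higher than every control before scaling, and lower than every control after it. The normalized log2 levels were 10.71, 10.77 and 10.74 at 18 weeks, 10.08, 10.11 and 9.77 at 25 weeks, and 11.00, 10.94 and 10.19 in controls, with no overlap between 25-week and control arrays. The log2 change was -0.72 ± 0.11 (SE, n = 3 each, limma adjusted p = 0.00255), with an interval of -0.97 to -0.48, and it was -0.42 within the dim pair and -0.88 between the other arrays. At 18 weeks the difference was -0.15 ± 0.12 (adjusted p = 0.559). The second Aurka probe set, 1440129_at, was dim, at signals of 2.73 to 18.4 at 18 weeks, 2.96 to 29.7 at 25 weeks and 8.21 to 18.0 in controls, and its log2 difference of -0.81 ± 0.50 at 25 weeks did not pass (adjusted p = 0.302).

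Between 25 and 18 weeks Aurka differed by -0.57 ± 0.12 on the log2 scale, which did not pass with the block for the dim arrays (limma adjusted p = 0.141). The 25-week arrays lay below every 18-week array. In the fit without the dim arrays the difference was -0.63 (adjusted p = 0.0197), and Aurka was then 1 of 20 division kinase probe sets called, against a background of 1.04% lower and 0.603% higher. Plk1 differed between the times by -0.90 ± 0.20 with the block (adjusted p = 0.163) and by -0.89 without the dim arrays (adjusted p = 0.0661).

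Plk4, which sets the number of centrioles by starting their duplication, is read by 3 probe sets that did not move together. The probe set 1419838_s_at had normalized log2 levels of 7.44, 7.42 and 7.30 at 18 weeks, 7.88, 7.78 and 8.37 at 25 weeks, and 6.89, 7.03 and 7.45 in controls. Each 25-week array lay above every control array, and the 18-week arrays lay above the bright controls and just below the dim one. The change at 25 weeks was 0.89 ± 0.14 on the log2 scale, or 1.85-fold (SE, n = 3 each, limma adjusted p = 0.00276, interval 0.58 to 1.19), with 0.92 within the dim pair and 0.87 between the other arrays. At 18 weeks it was 0.43 ± 0.15 (adjusted p = 0.176). The other Plk4 probe sets, 1426580_at and 1452115_a_at, differed at 25 weeks by 0.10 ± 0.12 (adjusted p = 0.628) and -0.11 ± 0.23 (adjusted p = 0.781). A probe set name ending in s or a marks probes shared by several transcripts, and which transcripts these 3 read was not examined here, so the rise belongs to 1 probe set and not to the gene as a whole.

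Plk5 (1434984_at), an atypical Polo-like kinase described in neurons and in cell cycle arrest rather than in driving division, was the dimmest of the called members. Its deposited signals were 4.10, 2.16 and 3.64 at 18 weeks, 3.91, 3.11 and 9.16 at 25 weeks, and 9.99, 12.7 and 37.9 in controls. Every VAD array thus read below every control array before scaling, and most of these signals are of the order of the 3.259 added before the logarithm. The normalized log2 levels were 2.82, 2.63 and 2.77 at 18 weeks, 2.28, 2.38 and 4.15 at 25 weeks, and 4.14, 4.38 and 6.77 in controls, where the dim 25-week array reaches the lowest control. The log2 change was -1.64 ± 0.35 at 18 weeks (SE, n = 3 each, limma adjusted p = 0.0467) and -2.16 ± 0.33 at 25 weeks (adjusted p = 0.00242), which is 3.11-fold and 4.48-fold lower. Plk5 passed the limit on mean signal through the control arrays, where it is high, so a difference in this direction is partly built into its being tested. Without the dim arrays and with no limit on signal, a setting chosen after seeing the data, the change was -1.60 at 18 weeks (adjusted p = 0.0705) and -2.05 at 25 weeks (adjusted p = 0.0157).

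**Figure D2:**
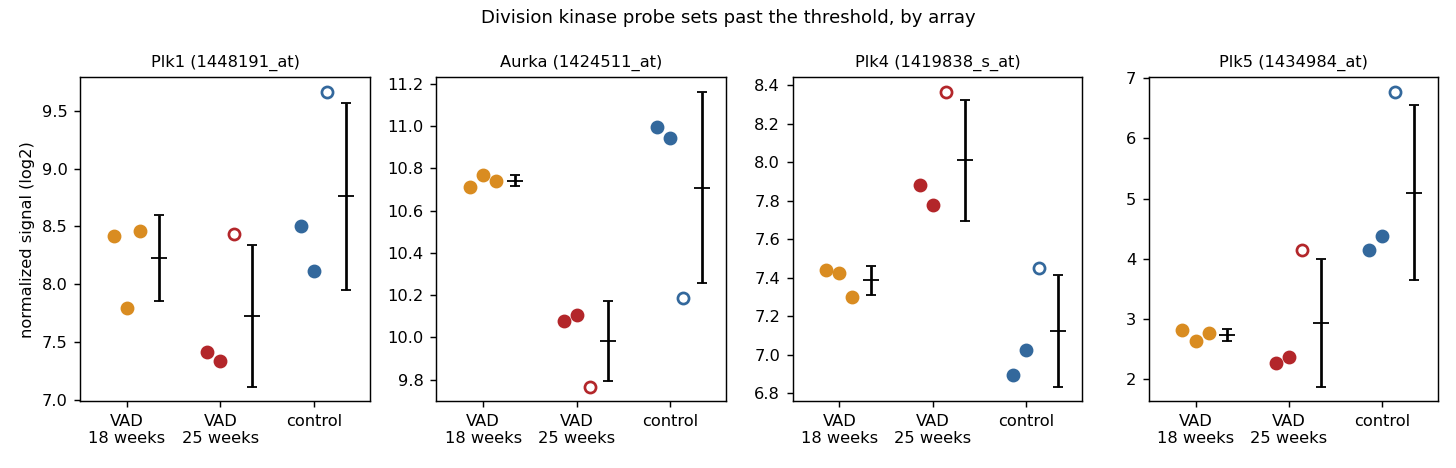
Normalized log2 signal (vertical axes, each with its own range) of Plk1, Aurka 1424511_at, Plk4 1419838_s_at and Plk5 on each of the 9 arrays, by group, with hollow points for the dim arrays and black marks for the group mean ± SD (n = 3). Aurka sat at 10.71 to 10.77 on the 18-week arrays and at 9.77 to 10.11 on the 25-week arrays, while both dim arrays lay above the other arrays of their group for Plk1, Plk4 and Plk5 and below them for Aurka.

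The promoters of the 4 called members were compared after Plk1 and Aurka had been seen to be lower at 25 weeks. Both genes are known from human and mouse cells to be switched on late in the cell cycle. This works through a CHR element near the start site, often beside CCAAT boxes. RefSeq promoter windows of mouse build GRCm38.p6, from 250 bases before to 50 after a gene's start, were found for 9 of the 10 members, with 1 window a gene. The start is that of the transcript each window was built on: for Plk1, Plk4 and Plk5 it is the outer edge of the annotated gene, but for Aurka it lies 316 bases inside that edge, so the whole Aurka window is within the annotated gene. The letters searched on both strands were TTTGAA, with its complement TTCAAA, and TTCGAA for the CHR, and CCAAT, with its complement ATTGG, for the CCAAT box. In the sequences, capitals mark these letters, and all other bases are in lower case.
Plk1, chr7:122159185-122159484, plus strand: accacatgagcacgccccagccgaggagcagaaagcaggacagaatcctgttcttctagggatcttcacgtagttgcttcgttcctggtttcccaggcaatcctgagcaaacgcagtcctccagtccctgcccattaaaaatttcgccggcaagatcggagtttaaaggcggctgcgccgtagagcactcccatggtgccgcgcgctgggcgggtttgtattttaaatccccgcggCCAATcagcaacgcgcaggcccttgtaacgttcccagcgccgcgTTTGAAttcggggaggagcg
Aurka, chr2:172370521-172370820, minus strand: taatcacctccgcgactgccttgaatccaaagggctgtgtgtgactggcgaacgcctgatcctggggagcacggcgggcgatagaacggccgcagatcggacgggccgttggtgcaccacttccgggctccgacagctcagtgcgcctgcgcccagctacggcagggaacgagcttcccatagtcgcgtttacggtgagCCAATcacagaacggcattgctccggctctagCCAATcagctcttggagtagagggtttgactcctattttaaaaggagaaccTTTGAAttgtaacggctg
Plk4, chr3:40799701-40800000, plus strand: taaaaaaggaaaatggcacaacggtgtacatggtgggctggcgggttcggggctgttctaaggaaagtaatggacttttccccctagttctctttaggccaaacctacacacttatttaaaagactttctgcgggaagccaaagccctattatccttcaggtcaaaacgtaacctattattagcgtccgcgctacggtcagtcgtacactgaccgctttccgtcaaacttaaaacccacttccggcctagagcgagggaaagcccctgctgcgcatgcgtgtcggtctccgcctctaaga
Plk5, chr10:80356209-80356508, plus strand: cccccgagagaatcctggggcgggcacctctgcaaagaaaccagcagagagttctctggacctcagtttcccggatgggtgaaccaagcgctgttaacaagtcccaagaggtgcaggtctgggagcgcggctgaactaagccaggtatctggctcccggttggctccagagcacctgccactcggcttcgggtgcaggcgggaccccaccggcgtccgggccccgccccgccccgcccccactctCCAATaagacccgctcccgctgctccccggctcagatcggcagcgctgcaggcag
Counted from the start of its own window's transcript, TTTGAA began at position 31 in Plk1 and 33 in Aurka, and CCAAT began at -14 in Plk1 and at -51 and -19 in Aurka. The Plk4 window held neither, and the Plk5 window held CCAAT at -5. Over the 9 windows, 5 held CHR letters (Plk1, Aurka, Bub1, Bub1b and Ttk), against 19.2% of 32851 windows of the same length, and 8 held CCAAT letters, against 37.4%. Both kinds were in 5 of 9 windows, the same 5 that held CHR letters, against 7.52% of all. Of these 5, Bub1, Bub1b and Ttk were not called at 25 weeks with the block. The log2 differences of their brightest probe sets were 0.10 (Bub1 1424046_at), -0.29 (Bub1b 1416961_at) and 0.20 (Ttk 1449171_at). The letters AGGTCA or TGACCT, the core that retinoic acid receptors bind in a pair, were in 3 of 9 (Plk4, Aurkc and Ttk), against 16.3% of all. These shares describe the letters of the windows, and their part in the differences was not tested.

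Nek2, which separates the centrosomes by releasing the linker between them and is abundant in mouse spermatocytes, had 4 probe sets and 0 calls. The brightest, 1437580_s_at, had normalized log2 levels of 11.53 to 11.67 at 18 weeks, 11.25 to 11.53 at 25 weeks and 11.02 to 11.55 in controls. Its log2 difference at 25 weeks was 0.09 ± 0.09 (limma adjusted p = 0.540), with an interval of -0.11 to 0.29, so a change as large as that of Plk1 or Aurka lies outside the interval. The differences of 1417299_at, 1437579_at and 1443999_at at 25 weeks were 0.26, -0.15 and -0.34, with intervals that all cover 0.

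Aurkb, the mitotic catalytic subunit of the chromosomal passenger complex, and Aurkc, its paralogue in meiotic germ cells, had 0 calls with the block. Aurkc (1449364_at) had normalized log2 levels of 8.27, 8.28 and 8.36 at 18 weeks, 7.91, 7.67 and 8.95 at 25 weeks, and 8.49, 8.42 and 8.75 in controls. The 25-week arrays 1 and 2 were the lowest of the series and the dim 25-week array the highest. The difference at 25 weeks was -0.37 ± 0.17 (limma adjusted p = 0.174), but it was 0.20 within the dim pair and -0.66 between the other arrays. Without the dim arrays it was -0.68 with an adjusted p of 0.0125, and Aurkc was then called lower with Plk1 and Aurka. That made 3 of 20 lower, with 1841 of 27022 or 6.81% of all probe sets lower and 8.96% higher. Aurkc was called as well with all 9 arrays, the block and array weights (-0.59, adjusted p = 0.00709). That fit called 6578 of all probe sets. The call of Aurkc thus changed with the fit, and the weights that the dim arrays received were not examined. At 18 weeks Aurkc differed by -0.00 ± 0.18 with the block (adjusted p = 0.997), although each 18-week array lay below every control. The plain difference of the group means was -0.25, and without the dim arrays the difference was -0.15 (adjusted p = 0.569). Without the dim arrays 0 of 20 division kinase probe sets were called at 18 weeks, against 3.97% of all probe sets in either direction. The 2 Aurkb probe sets differed at 25 weeks by 0.04 ± 0.26 (1424128_x_at, adjusted p = 0.939) and -1.01 ± 0.45 (1451246_s_at, adjusted p = 0.159). The larger of these came from 1 array, since 1451246_s_at had a signal of 1.02 on the dim 25-week array against 245 and 273 on the other 25-week arrays, and between the arrays other than the dim pair its difference was -0.05.

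The checkpoint kinases Ttk, which starts the signal at unattached kinetochores, Bub1, which recruits the other checkpoint proteins and marks centromeric chromatin for shugoshin, and Bub1b, part of the complex that inhibits Cdc20, had 7 probe sets and 0 calls at either time with the block. Bub1 1438571_at came nearest, with a log2 difference of 0.94 ± 0.31 at 25 weeks (limma adjusted p = 0.0613), and it passed with no variance trend (adjusted p = 0.0479) and with array weights (0.95, adjusted p = 0.0325). Its signals were 23.7, 14.8 and 18.2 at 18 weeks, 46.3, 56.2 and 8.79 at 25 weeks, and 4.68, 9.53 and 4.21 in controls. After normalization every VAD array lay above every control for that probe set, at 4.32 to 4.57 at 18 weeks and 4.09 to 4.98 at 25 weeks against 3.32 to 4.03. The brighter Bub1 probe set, 1424046_at, differed at 25 weeks by 0.10 ± 0.14 (adjusted p = 0.682), so the 2 Bub1 probe sets differed in size though not in sign.

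Bub1b 1416961_at and 1447363_s_at differed at 25 weeks by -0.29 ± 0.13 (limma adjusted p = 0.138) and -0.38 ± 0.13 (adjusted p = 0.0750), neither of which passed, and the dim 1447362_at differed by 0.29 ± 0.43. The levels of 1447363_s_at show how far the dim arrays lie off, with 9.43 to 9.66 at 18 weeks, 9.15, 9.24 and 6.21 at 25 weeks, and 9.48, 9.42 and 6.82 in controls. Ttk 1449171_at had log2 levels of 8.93, 8.75 and 8.73 at 18 weeks, 9.21, 9.09 and 9.13 at 25 weeks, and 8.87, 9.09 and 8.85 in controls. Its differences were -0.16 ± 0.13 at 18 weeks (adjusted p = 0.587) and 0.20 ± 0.12 at 25 weeks (adjusted p = 0.295), and Ttk 1442594_at differed by 0.06 ± 0.27 and -0.11 ± 0.26.

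The direction of the called members depends in part on the scaling between arrays. Over the 27022 probe sets tested, the median change (log2) at 25 weeks was -0.01 after quantile normalization, 0.08 after centring each array on its median and 0.93 on the deposited scale, where the bright 25-week arrays are left as they are. Aurka was -0.72, -0.70 and 0.14 under these 3 scalings and Plk1 was -1.04, -0.95 and -0.11, so on the deposited scale Aurka turned to the other side of 0 and neither passed (limma adjusted p = 0.753 and 0.833). Relative to the median of all probe sets on the deposited scale, Aurka was -0.78 and Plk1 was -1.03. Plk4 1419838_s_at was 0.89, 1.05 and 1.89 and passed under each scaling, and Plk5, tested with no limit on signal (also chosen after seeing the data), was -2.16, -2.16 and -1.31 (adjusted p = 0.0607 on the deposited scale). On the deposited scale 19 of 20 division kinase probe sets were above 0 and 7 were called, all higher, while 10571 of 27022 probe sets were called higher and 7 lower. The falls of Plk1 and Aurka are therefore falls relative to the rest of each array, while Plk5 was below controls on the deposited scale as well, without passing there.

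**Figure D3:**
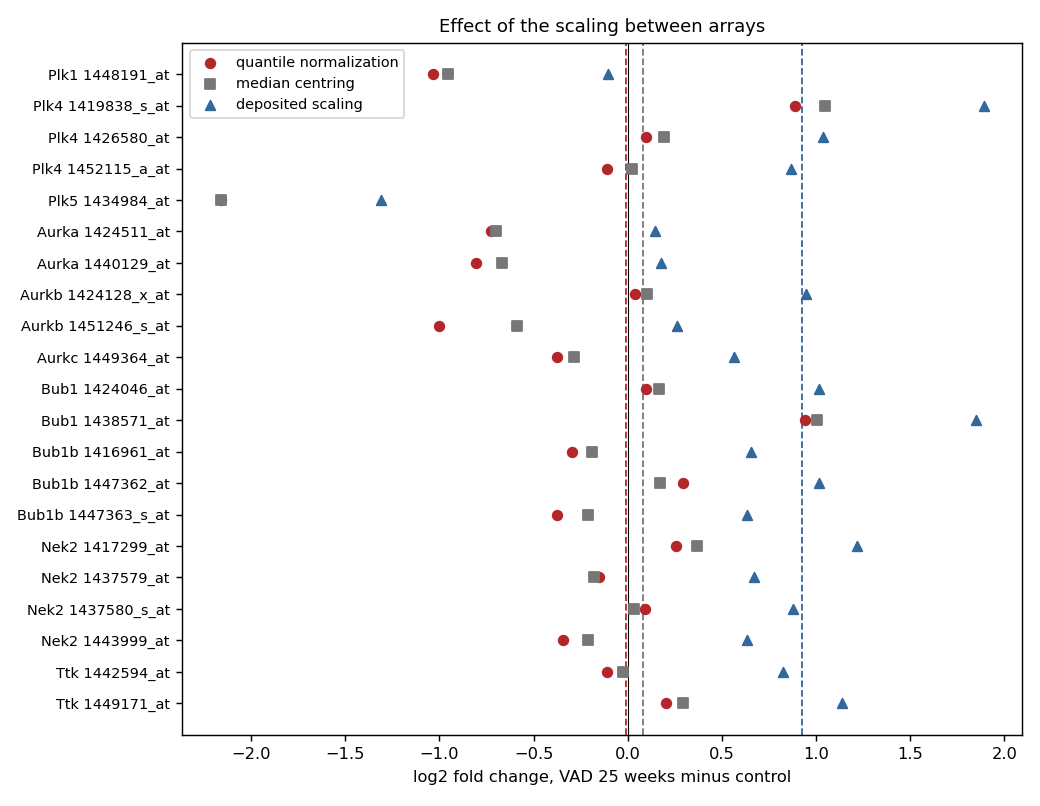
Log2 fold change at 25 weeks minus control (horizontal axis) for each of the 21 probe sets under 3 scalings between arrays, with dashed lines at the median of all kept probe sets under each (-0.01 quantile, 0.08 median centring, 0.93 deposited). On the deposited scale all triangles but those of Plk1 and Plk5 sit to the right of 0, and Plk1, Aurka and Plk5 sit to the left of the dashed line of their own scaling under all 3.

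Other genes that act with these kinases were read from 8 lists of 110 genes in all, of which 99 were measured. At 25 weeks 11 of the 99 rose and 12 fell (limma adjusted p under 0.05 over all probe sets), beside 8.51% higher and 6.29% lower of all probe sets, so the count that rose is near the background. With the replicate block 13 of the 99 passed, 12 of them among these 23. At 25 weeks the median log2 change over the 99 was -0.09 against -0.01 for all probe sets. At 18 weeks 1 rose, the Aurora A activator Ajuba (1.95 ± 0.37, adjusted p = 0.0298), and 1 fell, cyclin Ccnb2 (-0.66 ± 0.14, adjusted p = 0.0467), beside 1.32% higher and 0.133% lower of all probe sets, with a list median of -0.03, and neither passed with the replicate block (adjusted p = 0.174 and 0.210). The Ccnb2 group means were 10.21 at 18 weeks and 10.21 in controls, and without the dim arrays the Ccnb2 difference was -0.59 (adjusted p = 0.0360). Between 25 and 18 weeks 0 of the 99 passed with the block, and with group as the sole term 0 passed in any comparison.

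Of 9 Aurora kinase partners, 2 fell at 25 weeks and 1 rose. Cdca8, a subunit of the passenger complex, changed by -1.03 ± 0.21 (limma adjusted p = 0.00898), Tpx2, the spindle activator of Aurora A, by -0.61 ± 0.19 (adjusted p = 0.0484), and Ajuba by 1.52 ± 0.35 (adjusted p = 0.0143). Of 13 genes for entry into division 3 fell and 1 rose. Foxm1, the transcription factor of late cell cycle genes, changed by -1.19 ± 0.20 (adjusted p = 0.00367), Ccnb2 by -0.48, and Cdk1, the kinase that cyclin B activates, by -0.45 ± 0.13 (adjusted p = 0.0420). Arpp19, whose phosphorylated form inhibits the phosphatase that opposes Cdk1, changed by 0.54. The median of that list was -0.28, and 1 of the 4, Foxm1, was called without the dim arrays (-1.19, adjusted p = 0.00992).

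Of 18 genes of the anaphase-promoting complex and its regulators, 2 fell and 0 rose, namely the ubiquitin-conjugating enzyme Ube2c (-0.68 ± 0.19) and separase, Espl1 (-0.48 ± 0.14). Of 10 partners in the spindle checkpoint, 3 rose and 1 fell. Mad2l1, which binds Cdc20 in the checkpoint complex, changed by 1.19 ± 0.17 (limma adjusted p = 0.00182), Zwilch and Zwint, which place the checkpoint proteins on the kinetochore, by 0.58 and 0.49, and Mad2l1bp, which takes the complex apart, by -0.69. Of 17 kinetochore genes 3 rose, Ska2 by 1.25, Nsl1 by 1.19 and Cenpc1 by 0.85, and 2 fell, Ndc80 with a change of -1.04 and Spc25 with one of -0.75. Of 12 genes for centrosome duplication and cohesion, Ccp110, which caps centrioles, changed by 1.02 and Cntrob by -0.67. Of 11 other Polo, Nek and Vrk kinases, Nek3 and Nek4 rose by 1.09 and 0.44. Of 9 proliferation genes 1 fell, Rrm1, a subunit of ribonucleotide reductase, with a change of -0.46. Without the dim arrays 9 of these 23 genes did not pass, namely Tpx2, Ccnb2, Cdk1, Arpp19, Espl1, Zwint, Mad2l1bp, Spc25 and Cntrob, with adjusted p-values of 0.0615 to 0.183. With the replicate block 11 did not pass, namely Tpx2, Cdk1, Arpp19, Ube2c, Espl1, Zwint, Mad2l1bp, Nsl1, Cntrob, Nek3 and Nek4, with adjusted p-values of 0.0529 to 0.0926. On the deposited scale 11 of the 12 genes that fell were above 0, and Foxm1 was at -0.18. Leaving out the dim arrays also added calls. In that fit 25 list genes passed, 12 higher and 13 lower, beside 8.96% higher and 6.81% lower of all probe sets. In the list of the anaphase-promoting complex and its regulators, 1 was then higher and 6 lower.

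**Figure D4:**
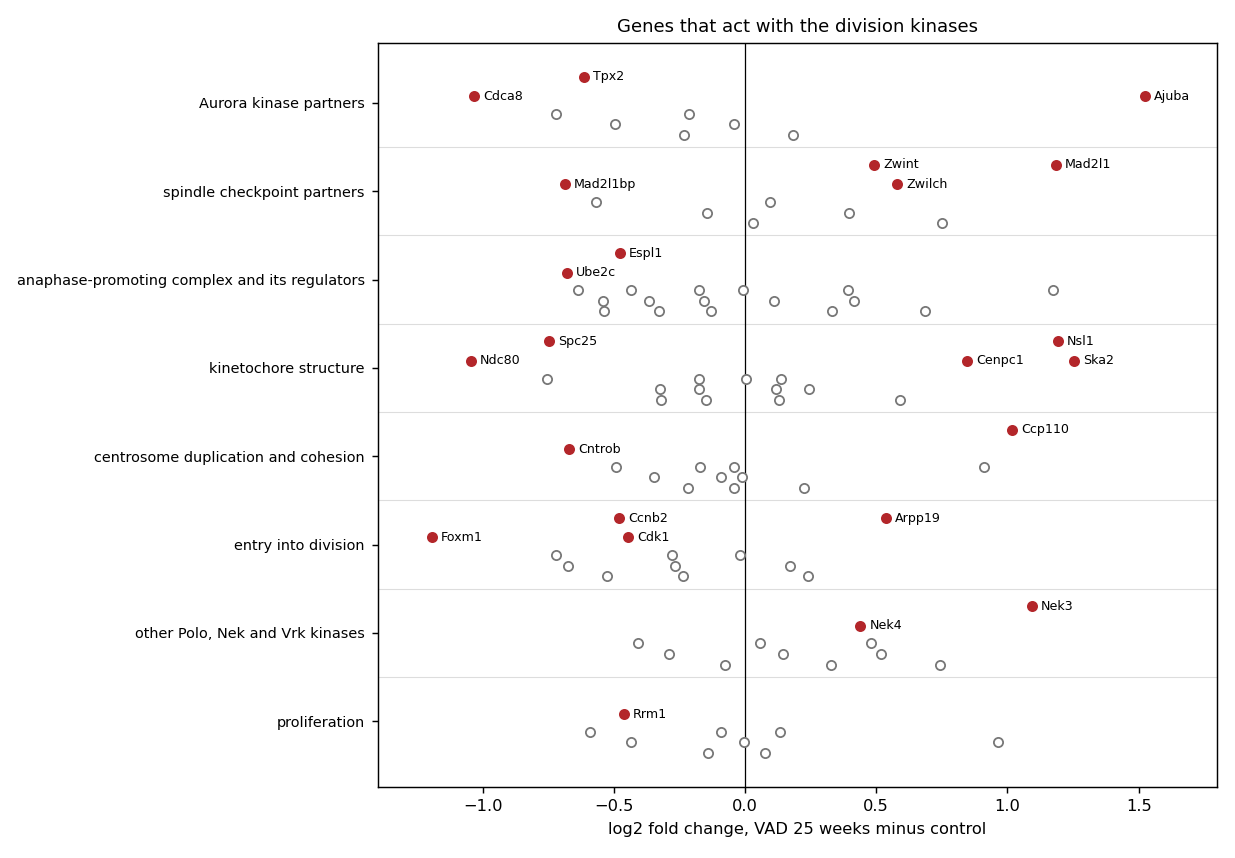
Log2 fold change at 25 weeks minus control (horizontal axis) of the 99 measured genes of 8 lists (vertical axis), 1 point a gene, with filled and named points for those at an adjusted p under 0.05 in the limma fit with a block for the dim arrays. Each list holds points on both sides of 0, and the named genes run from Foxm1 at -1.19 to Ajuba at 1.52.

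Some markers of other cells also differed between the diet groups. The counts that follow stand against the same 8.51% higher and 6.29% lower at 25 weeks and 1.32% higher and 0.133% lower at 18 weeks. Of 10 measured Sertoli markers, 7 rose at 25 weeks and 4 at 18 weeks, with a median log2 change of 1.63 at 25 weeks and 1.70 at 18 weeks, and their summed log2 level was 8.84 to 10.2 at 18 weeks, 8.92 to 9.89 at 25 weeks and 7.37 to 7.61 in controls. The Sertoli markers Sox9 and Amh were below the limit on signal. The Sertoli changes at 25 weeks ran from -1.09 to 3.61. Without the dim arrays 5 Sertoli markers rose at 25 weeks and 5 at 18 weeks. Of 4 measured Leydig cell markers 1 rose at 25 weeks, Cyp17a1, an enzyme of androgen synthesis (2.21 ± 0.51, limma adjusted p = 0.0147), and 0 at 18 weeks, with a median log2 change of 1.29 at 25 weeks and 1.24 at 18 weeks and a summed level of 7.05 to 9.09 at 18 weeks, 8.15 to 8.30 at 25 weeks and 5.50 to 7.18 in controls. Of 4 peritubular myoid and endothelial markers 0 were called at either time, with a median of 0.74 at 25 weeks and -0.04 at 18 weeks and a summed level of 6.996 to 8.35 at 18 weeks, 7.63 to 8.58 at 25 weeks and 6.95 to 8.03 in controls. Of 6 macrophage markers 4 rose at 25 weeks (3 without the dim arrays). Their summed level was 7.26 to 7.77 at 18 weeks, 7.90 to 8.39 at 25 weeks and 7.17 to 8.15 in controls, so both VAD ranges overlapped the controls. Of 12 meiotic markers 4 rose and 3 fell at 25 weeks, at 14.83 to 14.86 at 18 weeks, 14.3 to 14.7 at 25 weeks and 14.4 to 14.8 in controls, and of 10 spermatid markers 2 fell. Of 10 markers of undifferentiated spermatogonia only 4 were measured, with Lin28a, Sall4, Pou5f1 and Neurog3 below the limit, and 1 of these rose, Id4, by 0.92 at 18 weeks and 1.16 at 25 weeks. Etv5, Zbtb16 and Gfra1 differed by 0.58, 0.45 and -0.65 at 25 weeks and did not pass (limma adjusted p = 0.317, 0.454 and 0.217). The summed level of these 4 was 9.02 to 9.31 at 18 weeks, 9.30 to 9.52 at 25 weeks and 8.31 to 8.50 in controls. Of 8 markers of differentiating spermatogonia 1 rose and 1 fell at 25 weeks, and 0 were called at 18 weeks. Their summed level was 10.36 to 10.37 at 18 weeks, 9.29 to 9.83 at 25 weeks and 9.78 to 10.8 in controls. The labelled spermatogonia thus carried spermatocyte and spermatid transcripts on every array. The part of these cells in the differences of the division kinases was not tested.

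The genes most like each called member were taken as those with the smallest root mean square difference of log2 levels over the 9 arrays, each gene centred on its own mean. For Plk1 they were Zfp691, Arid3a and Ptms (0.155 to 0.197), and for Aurka they were Zfp280d, Nras and Rsph9 (0.0793 to 0.0982). For Plk4 1419838_s_at they were Cggbp1, Tspan31 and Crebrf (0.0969 to 0.107), and for Plk5 they were Nr4a3, Gm16619 and Laptm5 (0.465 to 0.514). No other division kinase and no gene of the 8 lists was among these 12. Nothing is read from that, since such genes are a small share of all the named genes searched. All these patterns include the offset of the dim arrays.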

How the data were processed

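The 9 arrays were deposited as a table of MAS5 signals, linear intensity values for each probe set (per the submitters' processing notes). The MAS5 version and target are not given in the sources consulted, and no detection calls entered the analysis. No depth applies to arrays, and 3 arrays a group limit the precision. Signals were taken as log2(signal + 3.259), the 25th percentile of all signals, and quantile normalized. The 64 control probe sets and those with a mean under the 40th percentile were left out, which kept 27022 of 45101. Symbols came from the platform annotation, which gives 34958 probe sets a single symbol, and probe sets are not placed on the genome, since no build is named in the files.

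The tests used limma (version 3.58.1, R 4.3.3; lmFit, contrasts and eBayes with a trend in the variance, tested on simulated data) over all 9 arrays, with Benjamini-Hochberg adjusted p under 0.05 over all kept probe sets. The model has group and a block for arrays whose trimmed mean (2% from each end) is under 0.5 of the median, with 5 residual degrees of freedom (6 without the block, 4 without those arrays). Each of the VAD 25-week and control groups holds 1 such array, so their difference equals that of the means, while the 18-week comparison is adjusted. For a pathway gene the brightest of its kept probe sets was used, those with names ending in x or s coming last. All probe sets of the members, up to 4 genes per list and comparison with the smallest p among those called, and the 3 genes most like each called member were named; Spc25, outside that limit of 4, was named after its value was seen. The members, lists, block and model were chosen with earlier results of these data known. The alternatives were the scaling, pseudocount, filter, variance trend, block, array weights, a replicate block, the groups fitted and leaving out each array. The groups share replicate numbers: deviations from the group means correlated at 0.519 to 0.690 between same-numbered VAD 25-week and control arrays and at -0.005 to 0.075 in pairs with 18 weeks. Number 3 is the dim array in both of the first groups, and among their other arrays the differences between numbers 1 and 2 correlated at -0.029. The labels tie the numbers to no shared animal or day, and the fit with a replicate block is printed where it changes a call or a count.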

Additional observations from a re-analysis of the deposited data

Results flagged for a closer look

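For Aurka 1424511_at and Ttk 1449171_at, the 3 arrays at 25 weeks lay on one side of the control mean and the 3 arrays at 18 weeks on the other. Only the division kinases were searched for this pattern, so no share over all probe sets stands beside it. The margin at 18 weeks was slight. The nearest 18-week array was at 10.714 against a control mean of 10.709 for Aurka, and at 8.935 against 8.938 for Ttk. For Aurka the mean at 25 weeks minus that at 18 weeks was -0.76 on the log2 scale, with levels of 10.71 to 10.77 at 18 weeks, 9.77 to 10.11 at 25 weeks and a control mean of 10.71 ± 0.45 (SD, n = 3). For Ttk it was 0.34, with 8.73 to 8.93 at 18 weeks, 9.09 to 9.21 at 25 weeks and a control mean of 8.94 ± 0.13 (SD, n = 3). The Aurka control mean includes the dim control array at 10.19, and the other controls, at 11.00 and 10.94, lay above all VAD arrays. In the limma test of the difference itself, with the block for the dim arrays, neither passed: Aurka -0.57 ± 0.12 (adjusted p = 0.141) and Ttk 0.36 ± 0.13 (adjusted p = 0.320). Without the dim arrays Aurka passed (-0.63, adjusted p = 0.0197) and Ttk did not (0.35, adjusted p = 0.191).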

How the results depend on the processing

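At 25 weeks 4 division kinase probe sets were called, against 7 on the deposited scale, where Aurka turned to 0.14 and Plk1 was -0.11. With group as the sole term 0 were called. The count was 5 with no variance trend (Bub1 added) and 6 with array weights (Bub1 and Aurkc added), and leaving out each array gave 4 to 5. Of all 27022 probe sets, 3999 were called in the main fit and 10578 on the deposited scale. No variance trend called 2378, array weights 6578, and leaving out each array 1788 to 4173, so these counts move with the background. The single call at 18 weeks, Plk5, became 0 with the deposited scaling, median centring, a pseudocount of 16, no filter, no variance trend, group as the sole term, the dim arrays left out (with or without the filter, the latter chosen after seeing the data), the replicate block, and only the 2 groups compared; leaving out each array gave 0 to 1, and 14 of 16 alternatives that test Plk5 lost the call. Between 25 and 18 weeks 0 became 1 on the deposited scale (Ttk), 1 without the dim arrays with or without the filter (Aurka) and 3 with array weights (Aurka, Aurkc and Plk1). Leaving out each array gave 0 to 1, with Aurka called without VAD 25-week array 3 or control array 3. Of all 27022 probe sets, 1806 were called on the deposited scale, 443 without the dim arrays and 1547 with array weights. Without the dim arrays and the filter 178 of 45037 were called. Without VAD 25-week array 3 the count over all probe sets was 393, and without control array 3 it was 376. Aurkc was called at 25 weeks without either VAD 25-week array 3 or control array 3, and with array weights. Over the arrays left out in turn, the log2 change at 25 weeks ranged from -1.17 to -0.94 for Plk1, -0.86 to -0.67 for Aurka, 0.84 to 0.92 for Plk4 and -2.30 to -1.98 for Plk5, all past the threshold where tested, since Plk5 fails the filter without control array 3. At 18 weeks Plk5 ranged from -1.80 to -1.55. The fits with 0 division kinase calls at 18 weeks called 0 to 1072 of all probe sets.

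Of 99 pathway genes 23 were called at 25 weeks, against 37 on the deposited scale, 16 with median centring and 0 with group as the sole term. Over all 27022 probe sets these 4 fits called 3999, 10578, 3612 and 0. The count was 25 without the dim arrays and 13 with the replicate block, beside 4262 and 2591 of all probe sets. At 18 weeks 2 (394 of all probe sets) became 0 on the deposited scale (134) and 4 with median centring (482). It became 0 with group as the sole term (0), 9 without the dim arrays (1072) and 0 with the replicate block (19). Between the times 0 became 4 on the deposited scale (1806 of all probe sets) and 4 without the dim arrays (443). These counts thus move with the background of each fit.

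With the replicate block the 4 calls at 25 weeks stayed 4, Plk5 at 18 weeks was -1.65 and no longer passed, and calls over all probe sets were 2591 against 3999 at 25 weeks and 19 against 394 at 18 weeks.

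With 3 arrays a group and 5 residual degrees of freedom, small differences cannot be seen, and intervals of dim probe sets are wide. The brightest signals and the high poly-A controls were on VAD 25-week arrays 1 and 2 alone, so brightness and diet time cannot be told apart there. The probe sets of Plk4 disagree.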
